A study of Mus musculus with 36 samples.

Results

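The 10 genes described here are imprinted genes, which are transcribed mainly from the copy of 1 parent. They were taken from the deposited table by name, as Meg3, Rian, Mirg, Dlk1, H19, Igf2, Cdkn1c, Peg3, Grb10 and Plagl1, and each name matched 1 of its 46893 features. The list was drawn up with results of these data already in view. The values below are therefore a description of these genes, and their p-values, which come from fits over the whole table, are no independent evidence for the choice.

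The table holds gene counts from the gastrocnemius, a calf muscle, of 36 male wild-type C57BL/6 mice, with 1 library per mouse and 6 mice in each of 6 groups. The mice were 3 to 4 weeks old at entry, before acclimation and assignment to groups, and were killed after 12 weeks of the experiment. The 6 mice of NFD-C were sedentary on the AIN93G diet, with 16% of the energy from fat, and those of the other 5 groups ate a high-fat diet with 45% of the energy from fat. HFD-C was sedentary, HFD-U ran 8.3 km/day on an unrestricted wheel, and HFD-25%, HFD-50% and HFD-75% were held by a brake to 2.1, 4.2 and 6.3 km/day. Running was voluntary, and the unit of comparison was the mouse. RNA was selected by its poly(A) tail from whole muscle, so fewer cells of a type and less RNA per cell cannot be told apart. Libraries held 13060090 to 27981702 counts, with a median of 16710687.5. The share of counts on rRNA-linked features (Lars2, AY036118 and the like) was 2.01 to 3.80% in the 6 NFD-C libraries and in 4 of the 6 HFD-C libraries, and 0.404 to 1.02% in the other 2 HFD-C libraries and all 24 running mice. This share cannot be told apart from the group for most sedentary mice, and results are given with and without the 10 libraries of high share where they turn on it. Fibre markers marked the tissue as skeletal muscle in all libraries, with a summed level of 102539.8 to 204474.7 counts scaled to library size (CPM) over 10 genes.

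Imprinted genes lie in clusters, and in each cluster an imprinting control region that is methylated on 1 parental copy sets which copy is transcribed. On mouse chromosome 12 the maternal copy yields the long noncoding RNAs Meg3 (also Gtl2), Rian and Mirg, which follow one another on the same strand and carry microRNAs and small nucleolar RNAs, while the paternal copy yields Dlk1 and Rtl1. H19 and Igf2 are the corresponding noncoding and growth factor pair on chromosome 7, and Cdkn1c lies in the neighbouring Kcnq1 domain. Many genes of these clusters are abundant in fetal tissue, including fetal muscle, and fall after birth.

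In GRCm39, the build of the chromosome accessions in the table, Dlk1 was at chromosome 12, 109418411 to 109429262, Meg3 at 109506879 to 109538163, Rian at 109570379 to 109628150 and Mirg at 109701415 to 109715892, all on the plus strand. On chromosome 7, Peg3 was at 6706891 to 6733443, H19 at 142129267 to 142131883, Igf2 at 142204505 to 142220566 and Cdkn1c at 143012076 to 143014802, all on the minus strand. Grb10 was on the minus strand of chromosome 11, at 11880499 to 11987428, and Plagl1 on the plus strand of chromosome 10, at 12966576 to 13007438. Some spans overlapped other features. Rtl1, transcribed on the opposite strand, covered 7023 bases of the Meg3 span and 474 bases of the Rian span and held 348 counts over all libraries, against 12536 for Meg3 and 3894 for Rian. Igf2os (67 counts) lay opposite Igf2. LOC102631979 (426 counts) lay within Grb10 on the same strand. The sources used here do not say whether counting used the strand, so reads of such partners cannot be told apart.

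The 3 noncoding members of chromosome 12 host small RNAs that poly(A) libraries do not capture as mature molecules. Between the start of Meg3 and the end of Mirg the table lists 60 microRNA genes and 19 small nucleolar RNA genes. Of the microRNA genes, 49 had 0 counts in all 36 libraries, and the highest total of any was 6 counts. Small nucleolar RNA features were also nearly empty, with 15 of 19 at 0, apart from AF357359 within Rian with 269 counts. Meg3, Rian and Mirg, with Rtl1, were therefore the main readout of this region here, as the map of counts by distance from the Meg3 start shows.

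**Figure D1:**
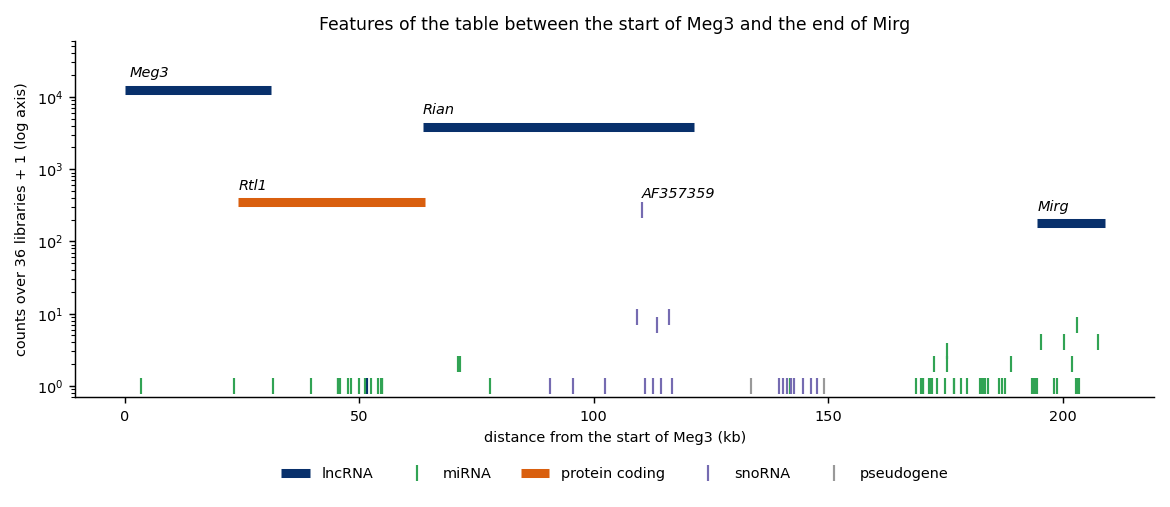
Total counts over 36 libraries, plus 1, on a log axis against the distance from the start of Meg3 in kb, for every feature of the table up to the end of Mirg. Bars span long features, and ticks mark microRNAs, small nucleolar RNAs and other short features. Meg3 (12536 counts) and Rian (3894 counts) stand far above Mirg (177 counts), and most microRNA features sit at 0 counts.

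Mature microRNA sequences from RefSeq (GRCm38.p6) are shown for the genes inside Meg3, Rian and Mirg and inside H19, since these are the products that the host transcripts carry. The capitals mark the seed, bases 2 to 8, by which a microRNA recognises its targets. All 60 microRNA genes matched an entry by gene ID. The 57 on the strand of Meg3 gave 106 mature sequences with 97 distinct seeds, of which 8 were shared by more than 1 microRNA. From Meg3 and Rian come
miR-770-5p: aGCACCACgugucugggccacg
miR-370-3p: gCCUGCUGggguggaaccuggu
miR-341-3p: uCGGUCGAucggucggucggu
miR-1188-5p: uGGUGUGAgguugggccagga
and from Mirg
miR-154-5p: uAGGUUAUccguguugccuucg
miR-409-3p: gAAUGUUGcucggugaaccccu
miR-369-3p: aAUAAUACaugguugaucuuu
miR-410-3p: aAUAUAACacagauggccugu
and from H19
miR-675-5p: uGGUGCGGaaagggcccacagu
miR-675-3p: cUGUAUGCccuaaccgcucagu
with a different seed each. A seed was shared, for example, by neighbours between Rian and Mirg, where
miR-379-3p: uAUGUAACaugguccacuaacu
miR-411-3p: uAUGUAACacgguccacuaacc
with the rest of the sequence also alike. None of these microRNAs was measured by these libraries.

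Promoter windows, the 250 bases before a RefSeq start in GRCm38.p6, were at hand for 8 of the 10 members, in 13 windows. They were searched on both strands for TGACGTCA, the letters of a full cAMP response element, which reads the same on both strands. It was found in 508 of 32851 windows of all genes (1.55%), and among the members before the first start of Meg3 and before Peg3. The second Meg3 window and the Rian window did not hold it, and H19 and Cdkn1c had no window. Its part in the members' values was not tested. Capitals mark the match.
Meg3, plus strand, chr12:109540746-109540995: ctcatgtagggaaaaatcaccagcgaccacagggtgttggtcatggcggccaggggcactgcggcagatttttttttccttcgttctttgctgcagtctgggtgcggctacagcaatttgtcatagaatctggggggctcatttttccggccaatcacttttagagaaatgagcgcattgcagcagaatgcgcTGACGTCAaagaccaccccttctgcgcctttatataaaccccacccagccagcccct
Peg3, minus strand, chr7:6730420-6730669: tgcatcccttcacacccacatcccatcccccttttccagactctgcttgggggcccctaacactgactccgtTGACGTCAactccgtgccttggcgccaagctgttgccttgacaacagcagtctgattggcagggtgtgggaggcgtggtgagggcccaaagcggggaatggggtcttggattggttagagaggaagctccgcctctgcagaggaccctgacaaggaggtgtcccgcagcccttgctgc
The match began 57 bases before the start of Meg3 and 178 bases before that of Peg3. Searched in the same way, TATAAA was in 12.4% of all windows and, among members, in Meg3, and CCAAT was in 33.8% of all windows and, among members, in Meg3, Mirg, Igf2 and Peg3. These matches are letters in the window and not measured sites.

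Per length, H19 was by far the most abundant of the 10, with a median of 69.6 CPM per kilobase of gene length (FPKM) over the 36 mice. Cdkn1c followed with 16.5 FPKM and Grb10 with 5.12 FPKM. Igf2, Peg3, Rian and Meg3 lay close together, between 1.41 and 1.95 FPKM. Plagl1 (0.162 FPKM), Mirg (0.158 FPKM) and Dlk1 (0.0668 FPKM) were scarce, with 0 to 37 counts per library, and did not reach the mean of 25 counts asked for in the tests. The other 7 members were tested in every comparison. All levels below are CPM scaled with TMM factors, and n = 6 mice per group.

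Meg3 was lower in each running group than in sedentary HFD-C, and the 2 sedentary groups did not differ detectably. In NFD-C the lowest, median and highest levels were 19.4, 27.4 and 46.3 CPM. In HFD-C they were 17.0, 24.5 and 34.7 CPM. HFD-25% had 13.9, 15.9 and 18.7 CPM. The mice of HFD-25% overlapped with the lower HFD-C mice, and 3 of them were below every HFD-C mouse. HFD-50% had 10.6, 18.7 and 20.1 CPM, and HFD-75% had 11.7, 18.5 and 20.4 CPM. In both of these groups 2 mice were below every HFD-C mouse. HFD-U had 11.2, 15.2 and 16.1 CPM, so that all 6 mice were below every HFD-C mouse, which held for 0.208% of all genes tested in that comparison. In the groups with shorter distances it held for 0.213, 0.429 and 0.165% of all genes, from HFD-25% upward, and for no tested member.

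**Figure D2:**
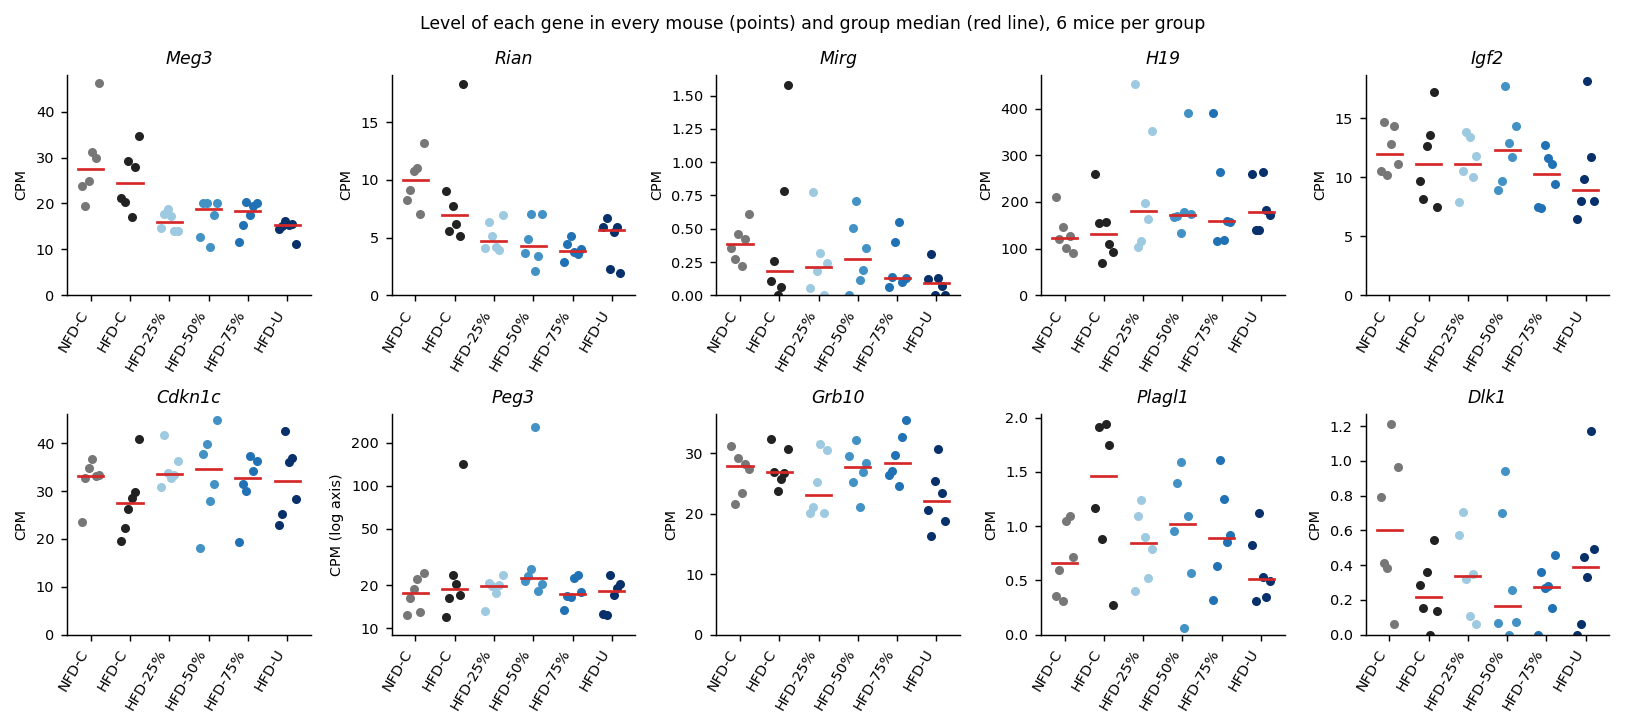
Level of each of the 10 genes in CPM (vertical axes, from 0, with a log axis for Peg3) in every mouse of the 6 groups (points), with the group median (red line). The Meg3 level of all 6 HFD-U mice lies below the lowest HFD-C mouse at 17.0 CPM, Peg3 is high in 1 mouse of HFD-C (142 CPM) and 1 of HFD-50% (260 CPM), and Mirg, Plagl1 and Dlk1 stay below 2 CPM.

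Against HFD-C, the fitted log2 fold change of Meg3 was -0.64 ± 0.164 (SE) for mice that ran 2.1 km/day, -0.57 ± 0.200 at 4.2 km/day, -0.52 ± 0.180 at 6.3 km/day and -0.77 ± 0.165 for HFD-U. The edgeR p-values were 0.00140, 0.0117, 0.0114 and 0.000254 before adjustment over all genes and 0.338, 0.318, 0.679 and 0.254 after it, so that no single group passed the adjusted threshold of 0.05. These 4 comparisons share the same HFD-C mice. With all 24 running mice against HFD-C, Meg3 fell by 0.62 on the log2 scale (95% interval -0.87 to -0.38), with an adjusted p of 0.0145 by edgeR. In this comparison 0.300% of all genes passed the adjusted threshold, and Meg3 was the only one of the 7 tested members to do so. The adjusted call was lost without either of 2 HFD-C mice. Without mouse 6 of HFD-C the change was -0.51 with an adjusted p of 0.100, and without mouse 3 it was -0.57 with an adjusted p of 0.0824. In the other 28 of 30 fits that left out 1 mouse it stayed past the threshold.

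In a single F-test over the 6 groups, Meg3 had an adjusted p of 0.00233 by edgeR, where 1.45% of all genes passed. In the low-share libraries alone, which hold no NFD-C mouse, no member passed adjustment in that test. Among the 4 running groups alone no difference by distance was detected (adjusted p = 0.912 by edgeR). Fitted on the distance with its square, Meg3 had an adjusted p of 0.0919 by edgeR over the 30 high-fat mice, where 0.683% of all genes passed, and of 0.807 over the 24 runners. The normal-fat group did not differ detectably from HFD-C (log2 fold change 0.24, 95% interval -0.17 to 0.65, adjusted p of 1 by edgeR). With NFD-C as the control in place of HFD-C, the running mice were lower by -0.85 ± 0.129 on the log2 scale. The adjusted p was 8.50e-05 by edgeR, where 2.07% of all genes passed. The NFD-C mice differ from the runners in diet and rRNA-linked share as well, so running cannot be told apart from these.

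The rRNA-linked share moved with the groups. The 2 HFD-C mice of low share had Meg3 at 27.9 and 34.7 CPM, above all 24 running mice, whose highest was 20.4 CPM, and the 4 HFD-C mice of high share had 17.0 to 29.3 CPM. In the low-share libraries alone (2 HFD-C mice against 24, of which 1 is mouse 6, without which the result over all libraries was lost) the change of Meg3 was -0.94 with an adjusted p of 0.0155, and with the share as a covariate it was -0.86 with an adjusted p of 0.0193. Over the 24 running mice the correlation of the log2 share with log2 Meg3 was -0.02, and over all 36 mice, which differ in group, it was 0.52, both as a description.

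**Figure D3:**
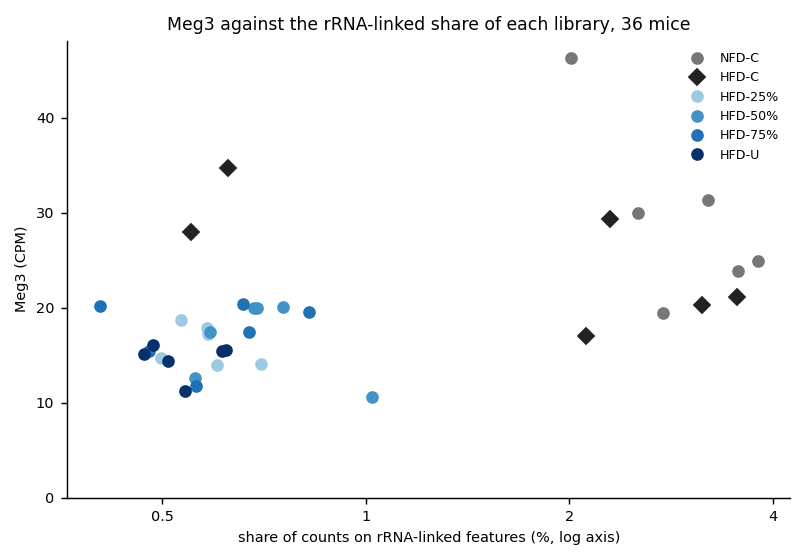
Meg3 level in CPM (vertical axis) against the share of counts on rRNA-linked features in percent (log axis) for the 36 libraries, coloured by group. The low-share libraries hold 2 HFD-C mice, at 27.9 and 34.7 CPM, and the 24 running mice, at 10.6 to 20.4 CPM.

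Of the 10 fibroblast and mesenchymal progenitor markers, all tested, 3 were lower in running mice at an unadjusted p of at most 0.05 (Col1a1, Col1a2 and Col3a1), as were 5.12% of all genes. None passed adjustment, and the median log2 fold change of these markers was -0.30 against 0.00 for all genes. Their summed level was 477 to 788 CPM in HFD-C and 273 to 725 CPM in HFD-50%, and likewise overlapped in the other running groups. Of the 8 tested markers of muscle stem cells and regenerating fibres, only Myf5 passed the unadjusted threshold in all running mice, and it was higher. The share of all genes that were higher in that fit is not given here. In HFD-U, where Meg3 was lowest, Myod1 (-0.59, adjusted p = 0.883 by edgeR) and Myog were lower by the unadjusted threshold, as were 3.31% of all genes. The summed level of the stem cell and regenerating fibre markers there had a median of 30.1 CPM against 41.4 CPM in HFD-C. The part of these cells in the Meg3 result was not tested.

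Rian, the next transcript downstream, was also lower in running mice. Its lowest, median and highest levels were 7.05, 9.94 and 13.2 CPM in NFD-C and 5.12, 6.91 and 18.3 CPM in HFD-C. HFD-25% had 3.94, 4.69 and 6.93 CPM, and HFD-50% had 2.08, 4.28 and 7.08 CPM. HFD-75% had 2.90, 3.87 and 5.16 CPM, and HFD-U had 1.96, 5.67 and 6.66 CPM. Between 2 and 5 mice of each running group were below every HFD-C mouse, and the groups overlapped. The log2 fold changes were -0.75 ± 0.291, -0.87 ± 0.345, -1.11 ± 0.284 and -0.87 ± 0.351 from the shortest to the longest distance, with unadjusted edgeR p-values of 0.0200, 0.0230, 0.00137 and 0.0248 and none past adjustment. Without mouse 6 of HFD-C, the highest at 18.3 CPM, they were -0.39, -0.52, -0.76 and -0.52, and the unadjusted threshold was passed at 6.3 km/day only. For all running mice the change was -0.90 (95% interval -1.35 to -0.45, adjusted p = 0.0834 by edgeR). Without that mouse the change was -0.54 with an adjusted p of 0.433. In the F-test over 6 groups Rian had an adjusted p of 0.0203 by edgeR, and among the 4 running groups no difference was detected. Against NFD-C the running mice were lower by -1.10 ± 0.196 with an adjusted p of 0.000877 by edgeR. Diet and rRNA-linked share differ in that comparison too and cannot be told apart from running.

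Mirg, the last of the 3 transcripts, had 0 to 23 counts per library and was at 0 in 5 of 36 libraries, where a count of 0 allows a level of up to 0.106 to 0.231 CPM depending on depth. Its medians were 0.387 CPM in NFD-C, 0.182 CPM in HFD-C and 0.0938 to 0.275 CPM in the running groups. The highest level of any mouse, 1.58 CPM, was again in mouse 6 of HFD-C. In a fit without a minimum count, Mirg changed by -0.98 ± 0.665 on the log2 scale in all running mice (adjusted p = 0.541 by edgeR), so that no difference was detectable at this depth. Dlk1, a transmembrane protein of the Delta and Notch family expressed from the paternal copy, had 0 to 22 counts per library. Its medians were 0.602 CPM in NFD-C, 0.219 CPM in HFD-C and 0.163 to 0.390 CPM in the running groups, and 3 of 6 NFD-C mice were above every HFD-C mouse. Without a minimum count the change from HFD-C to NFD-C was 1.35 ± 0.775 (adjusted p = 0.575 by edgeR) and that in all running mice 0.45 ± 0.666 (adjusted p = 0.783 by edgeR). Rtl1, the paternal gene opposite Meg3, did not reach the count minimum either, with medians of 1.08 CPM in NFD-C, 0.391 CPM in HFD-C and 0.0693 to 0.315 CPM in the running groups. Of the 10 other genes of this domain and its flanks in the table, Rtl1 among them, 5 were tested in all running mice and none passed the unadjusted threshold.

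H19, a long noncoding RNA that is abundant in fetal muscle, had higher medians in the running groups, and the difference did not pass. Its lowest, median and highest levels were 91.0, 123 and 210 CPM in NFD-C and 68.8, 131 and 260 CPM in HFD-C. They were 104, 181 and 454 CPM in HFD-25%, and 134, 171 and 391 CPM in HFD-50%. HFD-75% had 117, 159 and 391 CPM, and HFD-U had 139, 177 and 265 CPM. Every running group overlapped with HFD-C, and only 7 of the 24 running mice were above its highest mouse. The change in all running mice was 0.56 ± 0.281 on the log2 scale (adjusted p = 0.554 by edgeR), and no single group passed at the unadjusted threshold. Without a minimum count HFD-25% (0.74), HFD-U (0.48) and all running mice (0.57) passed it, and none passed adjustment. Against NFD-C, which differs in diet and rRNA-linked share as well, it was 0.64 ± 0.266 (adjusted p = 0.223 by edgeR).

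Igf2, the fetal growth factor whose gene shares its enhancers with H19, did not pass in any comparison. Its group medians ran from 8.93 CPM in HFD-U to 12.3 CPM in HFD-50%, with 11.1 CPM in HFD-C, and the change in all running mice was -0.06 with a 95% interval of -0.40 to 0.29. Cdkn1c (p57), an inhibitor of cyclin-dependent kinases, had medians of 27.5 CPM in HFD-C and 32.2 to 34.6 CPM in the other 5 groups. Its change in all running mice was 0.24 ± 0.147 (adjusted p = 0.648 by edgeR), and its sign turned in the low-share libraries alone (-0.10). Grb10, an adaptor that binds the insulin and IGF1 receptors and dampens their signal, had a median of 26.8 CPM in HFD-C and levels of 16.3 to 30.8 CPM in HFD-U, where 4 of 6 mice were below every HFD-C mouse. The change in HFD-U was -0.29 ± 0.144 (adjusted p = 0.925 by edgeR), and those in the other groups lay between -0.16 and 0.09. Plagl1 (Zac1), a zinc finger factor held to regulate other imprinted genes, had 1 to 37 counts per library. Its median was 1.46 CPM in HFD-C, 0.655 CPM in NFD-C and 0.512 CPM in HFD-U, and without a minimum count the change in HFD-U was -1.09 ± 0.497 (adjusted p = 0.543 by edgeR).

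Peg3, a paternally expressed zinc finger protein, was level in nearly every mouse and far higher in 2. In 34 of 36 mice it lay between 11.9 and 25.9 CPM. In mouse 6 of HFD-C it was at 142 CPM, which is 7.96 times the mean of the other 5 mice of that group, and in mouse 4 of HFD-50% it was at 260 CPM, 11.9 times the mean of the other 5. Against HFD-C the log2 fold changes were -1.0, 0.71, -1.04 and -1.13 from the shortest to the longest distance, and -1.09 for NFD-C. Only HFD-U passed the unadjusted threshold (adjusted p = 0.912 by edgeR). Without mouse 6 of HFD-C the changes of HFD-25%, HFD-75%, HFD-U and NFD-C were 0.11, 0.06, -0.02 and 0.00. With both mice left out, the running mice differed from HFD-C by 0.10 ± 0.150 (adjusted p = 0.884 by edgeR). The difference among running groups (adjusted p = 0.264 by edgeR), past the unadjusted threshold like 7.27% of all genes, came with a single mouse at 260 CPM, as did that with distance over the 24 runners, where 8.49% of all genes passed unadjusted.

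The 2 mice with high Peg3 differed in Meg3, Rian and Mirg. Mouse 6 of HFD-C had the highest Rian (18.3 CPM) and Mirg (1.58 CPM) of all 36 mice and the second highest Meg3 (34.7 CPM). Mouse 4 of HFD-50% had the lowest Meg3 of all (10.6 CPM) and the second lowest Rian (2.08 CPM). Both had little Plagl1, at 0.275 and 0.0578 CPM, the lowest pair of the 36. Around Peg3 itself, Zim1, an imprinted zinc finger gene next to it, was at 11.3 CPM in mouse 4 of HFD-50% and at 0.824 CPM in mouse 6 of HFD-C, against 0.525 to 3.95 CPM in the other 34 mice. Usp29, which is transcribed from the same bidirectional promoter region, was at 1.10 CPM in mouse 6 of HFD-C, the highest of 36, and at 0.347 CPM in mouse 4 of HFD-50%. The mice also differed elsewhere. Mouse 6 of HFD-C had the highest levels of the adipocyte genes Lep (16.6 CPM) and Adipoq (19.4 CPM), and its 6 adipocyte markers summed to 89.7 CPM, against a group median of 7.68 CPM. Mouse 4 of HFD-50% had the highest Mt1 (652 CPM), Mt2 (351 CPM), Cdkn1a (100 CPM) and Sesn1 (199 CPM) of all mice, and little Adipoq (0.174 CPM). The genes of this paragraph other than the members were chosen after their values were seen, and their part in the Peg3 levels was not tested.

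Counted together, Meg3 and Rian were the 2 members lower at an unadjusted p of at most 0.05 in each of the 3 restricted groups, of 7 tested and 10 in all, and in HFD-U Peg3 joined them. Meg3 stayed past this threshold in each of the 12 fits per group that left out 1 mouse, while Rian did so in 11, 11, 12 and 9 of 12 from the shortest to the longest distance. Without mouse 6 of HFD-C, Rian was not past it in HFD-25%, HFD-50% or HFD-U, and Meg3 was the 1 member left in HFD-U. Over all genes, 3.58, 4.89, 3.16 and 3.31% were lower by this rule, from the shortest to the longest distance. No member was higher by it in any group, where 3.40, 5.80, 2.31 and 2.15% of all genes were. No member passed adjustment by edgeR in these comparisons, whereas DESeq2 on the same genes called 1 member in each of HFD-U and HFD-75%. The share of all genes that DESeq2 called is not given here, so no statement about the members is made from its calls. With edgeR, 0.00820% of all genes passed in HFD-25% and none in the other 3. For NFD-C no member passed the unadjusted threshold, against 4.12% of all genes. In the fit of all running mice Meg3 and Rian were lower by the unadjusted rule, against 5.12% of all genes. In HFD-U, same-numbered mice had correlated deviations, though no label pairs mice across groups. A replicate block there moved Rian (-0.80) and Peg3 (-0.50) above the unadjusted threshold of 0.05 and brought H19 (0.55) and Grb10 (-0.32) under it. Without mouse 6 of HFD-C and mouse 4 of HFD-50%, no member passed the unadjusted threshold in HFD-50%, where Meg3 and Rian both changed by -0.36. None passed adjustment with the block in HFD-U, and Meg3 (-0.74) had an adjusted p of 0.147 by edgeR.

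**Figure D4:**
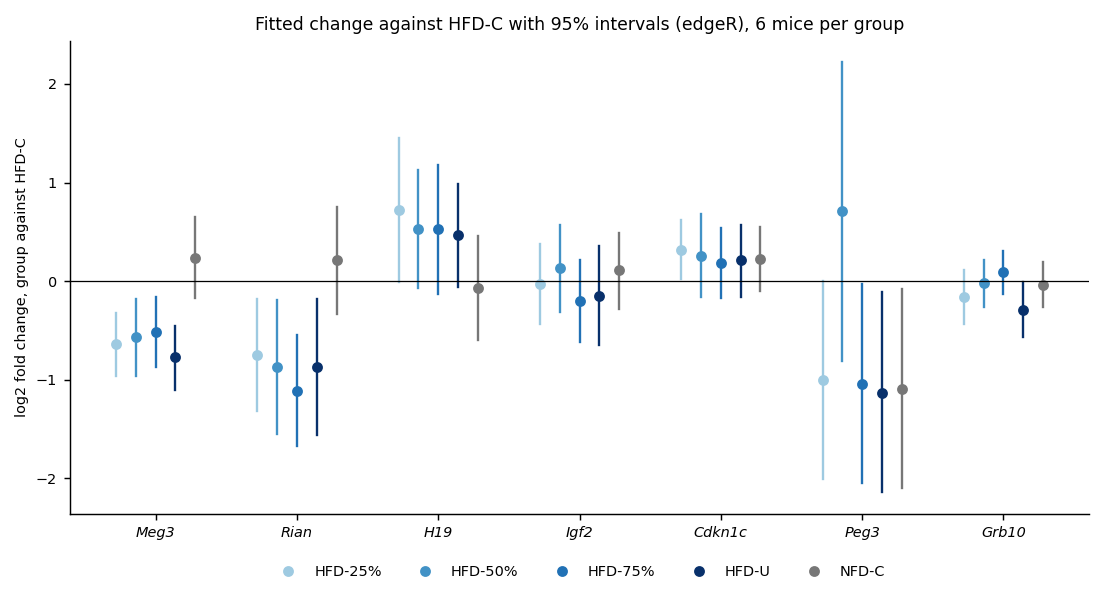
Fitted log2 fold change against HFD-C (vertical axis) of the 7 tested members for each of the other 5 groups, 6 mice each (points, colours), with 95% intervals (lines). Meg3 and Rian lie below 0 in all 4 running groups and near 0 in NFD-C, Igf2 intervals all span 0, Grb10 is lowest in HFD-U (-0.29), and Peg3 has wide intervals. The intervals of Cdkn1c in HFD-25%, Peg3 in HFD-75% and NFD-C, and Grb10 in HFD-U leave out 0. By the F-test these did not pass the unadjusted threshold.

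Across mice the 3 noncoding transcripts of chromosome 12 varied together. After the group means were taken off, log2 levels of Meg3 over the 36 mice had a Pearson correlation of 0.56 with Rian and 0.57 with Mirg, and Rian and Mirg had 0.56. Of the other members, Cdkn1c had 0.59 with Meg3, Dlk1 0.42, Grb10 0.31, Plagl1 0.27, Igf2 0.20 and Peg3 0.04, while H19 had -0.42. Before group means were taken off, the 5 non-member genes most like Meg3 among 12053 were 2310065F04Rik (0.76), Nptn (0.73), Unc119, Emid1 and Pdlim7 (0.71 each), beside 0.76 for Rian. Afterwards they were Mpp1 (0.81), H2az1 (0.77), Pdlim7, Prxl2b and Ppm1j (0.72 each). These correlations over 36 mice are a description, and those of the scarce genes carry counting error.

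A written list of 71 other imprinted genes and neighbours of the same clusters had 36 tested genes in the fit of all running mice. Of these, 4 were lower at the unadjusted threshold (Kcnq1ot1, Cd81, Mest and Blcap), where 5.12% of all genes were, and none was higher, with a median log2 fold change of -0.05 against 0.00 for all genes. Their changes ran from -0.55 for Mest to 0.51 for Zim1, and 32 of 36 lay within 0.5 of 0. Blcap, a small protein whose gene surrounds the imprinted Nnat, was the only one past adjustment there, against 0.300% of all genes. Its lowest, median and highest levels were 25.3, 30.1 and 33.9 CPM in HFD-C and 23.4, 28.6 and 34.2 CPM in NFD-C. Running groups had medians of 23.0 to 26.0 CPM, and the change was -0.34 ± 0.0791 with an adjusted p of 0.0473 by edgeR. Kcnq1ot1, the noncoding RNA that silences the domain of Cdkn1c in cis, passed only in the F-test over 6 groups (adjusted p = 0.00518 by edgeR). It had medians of 9.72 CPM in NFD-C, 7.07 CPM in HFD-C and 3.92 CPM in HFD-U, and its change in all running mice was -0.54 ± 0.182 (adjusted p = 0.254). Malat1, an abundant nuclear noncoding RNA outside imprinted clusters, had medians of 1637 CPM in NFD-C, 1268 CPM in HFD-C and 675 to 918 CPM in the running groups. It had an adjusted p of 0.000215 in that F-test and of 0.103 in all running mice by edgeR. Of the 8 tested nuclear noncoding RNAs, these 2 were the ones lower in all running mice at the unadjusted threshold, and Neat1 (0.00) and Tug1 (-0.04) were not. In HFD-U alone Neat1 was lower by that threshold too (-0.54, adjusted p = 0.883 by edgeR).

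**Figure D5:**
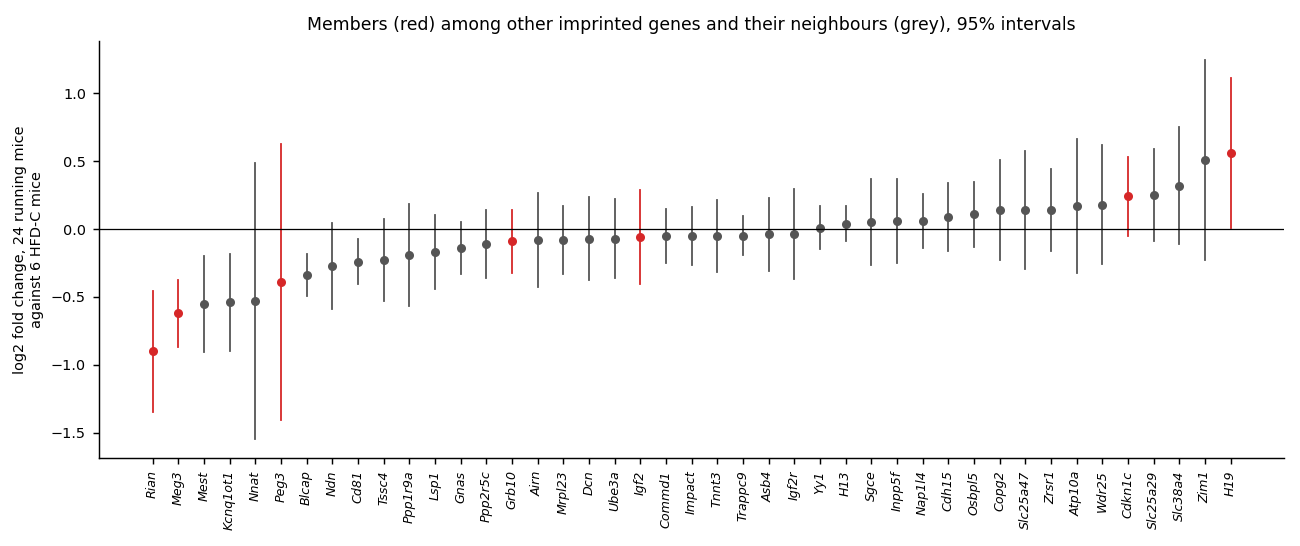
Fitted log2 fold change (vertical axis) of all 24 running mice against the 6 HFD-C mice for the 7 tested members (red) and 36 other imprinted genes or neighbours (dark grey), ordered by value, with 95% intervals. Rian (-0.90) and Meg3 (-0.62) are at the low end, H19 (0.56) is at the high end, and 32 of the 36 others lie within 0.5 of 0.

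The pathways that members feed into were read in the same fit of all running mice, in which 5.12% of all genes were lower at the unadjusted threshold. Of 17 tested genes of the IGF and insulin receptor pathway, which Igf2 and Grb10 act on, Pik3r1 was higher (0.82 ± 0.248) and Irs1 lower (-0.40 ± 0.141) in all running mice at the unadjusted threshold of edgeR. Igfbp5 (0.00), Insr (-0.09) and Akt2 (0.11), the 3 of highest mean level, did not pass. Irs1, the receptor substrate, passed adjustment only in the F-test over 6 groups (adjusted p = 0.0229 by edgeR), with medians of 68.9 CPM in NFD-C, 55.5 CPM in HFD-C and 34.0 to 48.2 CPM in the running groups. In the fit on distance over the 30 high-fat mice, Igf1r, Irs1, Igfbp3 and Pik3r1 of the 17 passed the unadjusted threshold. The share of all genes that did so in that fit is not given here, so no statement about the pathway is made. Pik3r1, a regulatory subunit of phosphoinositide 3-kinase, passed adjustment there (adjusted p = 0.0386 by edgeR), as did 0.683% of all genes. Of 10 tested cell cycle genes, Cdkn1b and Ccnd1 were lower and none higher in all running mice. Of 9 tested regulators of imprints and DNA methylation, Dnmt3a and Tet3 were lower and none higher, and neither passed adjustment (adjusted p = 0.336 by edgeR for Dnmt3a). In HFD-50% alone Cdkn1a (1.48, adjusted p = 0.314 by edgeR) and Tet2 were higher at the unadjusted threshold. The same held for 5.80% of all genes there. Cdkn1a was at 100 CPM in mouse 4 of HFD-50% and at 14.4 to 33.5 CPM in the other 5 mice of that group.

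The remaining marker lists are given for all running mice against HFD-C, and their part in the members' values was not tested. Against the 5.12% of all genes that were lower, 2 of 3 tested adipocyte markers were (median log2 fold change -1.28), and these markers summed to 2.73 to 89.7 CPM in HFD-C and 1.09 to 85.8 CPM in running mice. The median sums were alike, at 7.68 CPM in HFD-C and 3.88 to 9.05 CPM in the running groups. In HFD-C the sum was 89.7 CPM in mouse 6 and 2.73 to 18.5 CPM in the rest of the group. Tendon cell markers (2 of 3 tested lower, median -0.46) and macrophage and immune markers (1 of 6 tested lower) had no member that was higher, and 1 of 8 endothelial markers, Cldn5, was higher. None of 6 Schwann cell and nerve, 5 blood and 8 slow fibre markers passed, nor did the 1 tested gene of the PLAG family and Notch-like ligands, and 1 of 9 muscle fibre markers, Pvalb, was lower. These calls are at the unadjusted threshold, and none of these lists had a gene past adjustment in this comparison. Cldn5, a tight junction protein, passed it in the F-test over 6 groups (adjusted p = 0.0196 by edgeR) and in the fit on distance over 30 mice (adjusted p = 0.0108 by edgeR). Of the 6 tested rRNA-linked features, 4 were lower and passed adjustment, with a median of -2.69.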

How the data were processed

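The authors deposited 1 table of raw gene counts for 36 libraries of poly(A)-selected RNA. The submitters' processing notes and the methods name HISAT2 2.0.5 for alignment and featureCounts 1.5.0-p3 for counting, and the notes also name StringTie 1.3.3b, DESeq2 1.20.0 and edgeR 3.22.5. The labels name mm10, while the chromosome accessions in the table are those of GRCm39, whose coordinates are printed. The strand setting of the counting is not given in the sources used here. All value columns matched a sample. The 562 features without a name, with 0.262% of the counts, were kept in library sizes and, where they reached the count minimum, in tests.

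Here, counts were scaled with TMM factors and tested with edgeR 4.0.16 (R 4.3.3) by its quasi-likelihood F-test on genes with a mean of at least 25 counts over the libraries in the fit, with Benjamini-Hochberg adjustment over all genes tested. Each group was compared with HFD-C, as were all running mice together, and F-tests covered all 6 groups, the 4 running groups and the distance. SE is the log2 fold change divided by the root of F, and 95% intervals rest on it. These intervals can be narrower than the F-test allows. Some lie wholly above or below no change where the F-test did not pass the unadjusted threshold. Examples are H19 in all running mice (0.01 to 1.11, unadjusted p = 0.0555 by edgeR) and Grb10 in HFD-U (-0.57 to -0.01, unadjusted p = 0.0585 by edgeR). Calls therefore rest on the F-test and not on the intervals. One count was worth 0.0354 to 0.0770 CPM, and such limits cover counting error only. Alternatives were DESeq2 1.42.0, its size factors in edgeR, no minimum count, a replicate block, the rRNA-linked share as a covariate, low-share libraries alone, 1 fit over all mice, and each mouse left out. Chosen after the data were seen were a fit without the 2 mice of highest Peg3 and NFD-C as the control. No label pairs mice across groups. Numbers of mice were taken as pairs only where all 6 same-numbered pairs had deviations correlated above 0.1, which held for HFD-U and HFD-C (0.135 to 0.534). This choice rests on the same data that were tested. A simulation of HFD-50% and HFD-C over 11969 genes held 194 that were made to differ. Of these, edgeR found 67.0% and DESeq2 77.3%, while 11 and 30 other genes were called wrongly. Genes made higher had a median log2 fold change of 1.02 by either tool. These shares are therefore no guide to smaller changes, such as the -0.77 of Meg3 in HFD-U.

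The members and lists were chosen with earlier results of these data known. The rule for naming took all members, from each list the genes past adjustment in any comparison and the 3 of highest mean level, and the 5 genes most like Meg3. Not all list genes it took are printed, and list genes past the unadjusted threshold and others outside the rule were named after their values were seen.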

Additional observations from a re-analysis of the deposited data

Results flagged for a closer look

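In each of the 60 sets of 6 mice formed by 10 genes and 6 groups, the gap between the highest or lowest mouse and its nearest neighbour was divided by the range. A share above Dixon's 95% critical value for 6 samples was met in 6 sets. In independent sets of normally distributed values about 1 in 20, or 3, would meet it. The levels here were CPM without a log, some rest on few counts, and the same mice recur across genes. The number of sets is therefore a description and no test. Meg3 was lowest in mouse 6 of HFD-U, at 11.2 CPM against 14.4 to 16.1 CPM in the other 5. Rian was highest in mouse 6 of HFD-C, at 18.3 CPM against 5.12 to 8.99 CPM. H19 was highest in mouse 5 of HFD-50%, at 391 CPM against 134 to 178 CPM. Cdkn1c was lowest in mouse 1 of NFD-C, at 23.5 CPM against 32.8 to 36.7 CPM. Peg3 was highest in mouse 6 of HFD-C, at 142 CPM against 11.9 to 23.5 CPM, and in mouse 4 of HFD-50%, at 260 CPM against 18.1 to 25.9 CPM.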

How the results depend on the processing

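Of the members' fold changes under other settings, 239 kept their direction and side of the unadjusted threshold, 36 newly passed it, 4 no longer did and 16 turned in sign. With 1 mouse left out the numbers were 561, 37, 11 and 21. Levels moved by more than 1 SD in 13 of 120 cases. The causes were not tested.

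Numbers of members past the unadjusted threshold in HFD-25% went from 2 to 5 without a minimum count and to 4 with the replicate block, the covariate or the low-share libraries alone. In HFD-50% they went from 2 to 0 without the 2 mice of highest Peg3. In HFD-75% they went from 2 to 4 with the covariate and with low-share libraries, in HFD-U from 3 to 5 without a minimum, and in all running mice from 2 to 4 with the replicate block. In NFD-C they went from 0 to 1 with RLE factors, without a minimum and with the replicate block, and to 2 with the covariate. Among running groups and for distance over 24 mice they went from 1 to 0 with DESeq2, which gave Peg3 no p. Past adjustment, DESeq2 called 1 member in HFD-75% and 1 in HFD-U, where edgeR called 0, and 2 for distance over 30 mice, where the replicate block called 1 and edgeR 0. The share of all genes called under these other settings is not given here, so the calls are read no further. For all running mice, 1 became 2 with DESeq2, without a minimum and with NFD-C as control, and 0 without the 2 mice. For the 6 groups, 2 became 1 with the covariate and 0 in low-share libraries. Leaving out 1 mouse gave 2 to 4, 2 to 3, 2 to 4 and 1 to 4 unadjusted calls from the shortest to the longest distance, 0 to 2 in NFD-C, and 2 to 3 in all running mice, with 0 to 2 past adjustment.

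Signs turned for Igf2 in HFD-25% (0.00, replicate block) and all running mice (0.01, covariate). They turned for Cdkn1c with the covariate (-0.03, 0.00, -0.15 and -0.17 from HFD-25% to HFD-U) and in low-share libraries (-0.01, -0.07, -0.16 and -0.14, and -0.10 for all running mice). They turned for Peg3 in HFD-50% (-0.33, low-share libraries), NFD-C (0.07, covariate) and all running mice (0.10 without the 2 mice, 0.71 with NFD-C as control), and for Grb10 in HFD-50% (0.07 without the 2 mice). With 1 mouse left out, Igf2 ran from -0.12 to 0.13 in HFD-25%, -0.38 to 0.01 in HFD-U and -0.15 to 0.10 in all running mice. Peg3 ran from -1.18 to 0.11, -0.81 to 1.81 and -1.23 to 0.06 in the 3 restricted groups, -1.29 to 0.00 in NFD-C and -1.0 to 0.72 in all running mice. Grb10 ran from -0.08 to 0.04 in HFD-50% and -0.08 to 0.02 in NFD-C, and H19 from -0.25 to 0.19 in NFD-C.

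Same-numbered mice had deviations correlated above 0.1 in 4 of 6 pairs for HFD-25%, 5 for HFD-50%, 1 for HFD-75% and 4 for NFD-C. There the block rests on a shared number only. In HFD-U all 6 pairs did, and no label pairs those mice either. Low-share libraries alone could not be run for NFD-C, which has none, and single mice were not left out of the F-tests over groups and distances. Mirg, Plagl1 and Dlk1 are limited by depth.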
